A study of Triticum aestivum with 9 samples.

Results

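The Rht-1 triad is the set of 3 copies of the wheat gene for the DELLA growth repressor, 1 on each of the chromosomes 4A, 4B and 4D. The members were chosen by identifier, as TraesCS4A02G271000 (Rht-A1), TraesCS4B02G043100 (Rht-B1) and TraesCS4D02G040400 (Rht-D1), and they are 3 of the 107891 genes in the files. Each gene has 1 annotated transcript, so the triad makes up 3 of 133744 transcripts. The files hold identifiers without gene names, and the names of the copies were given with the list of members.

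DELLA proteins are nuclear regulators of the GRAS family that hold back growth. When gibberellin binds its receptor GID1, the receptor takes hold of the DELLA protein, an F-box protein (GID2 in rice, SLY1 in Arabidopsis) joins them, and the repressor is ubiquitinated and degraded. In the aleurone layer of barley grains, the orthologue SLN1 keeps α-amylase genes silent until gibberellin arrives. The semi-dwarfing alleles of Rht-B1 and Rht-D1 that spread with the Green Revolution encode DELLA proteins that resist this degradation, whereas Chinese Spring, the cultivar used here, carries the tall alleles. The quantity of DELLA protein is set largely by its degradation, and the values below are of mRNA only.

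RNA was sequenced from filling grains of the main stem of Chinese Spring, an inbred bread wheat with the subgenomes A, B and D, in 9 samples with 3 plants at each temperature. The plants were moved from a greenhouse to 20 °C 12 days after flowering, adapted there for 3 days, and then either stayed at 20 °C (control) or spent 1 h in light in incubators at 30 °C or 40 °C. All groups share the genotype, the stage and the adaptation at 20 °C, and the study calls the plants of a treatment independent. Grains were taken after 1 h only and hold several tissues, so fewer cells of a type cannot be told apart from less RNA per cell. The extraction text in the labels speaks of another, animal tissue, and the labelled tissue was not checked here against marker genes, because the identifiers are not paired with names.

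The total expected count, the fragments that RSEM assigned to transcripts, ranged from 15778561 to 19497182 per sample. Set against counting noise alone, replicates of a temperature differed with a chi-square per degree of freedom of 7.33 to 22.3 over 9 pairs, so none was counted as a repeat of another. The library of 40 °C replicate 3 stood apart in composition, with a TMM factor (edgeR's scaling for library composition) of 0.832 against 0.981 to 1.07 in the other samples. FPKM (fragments per kilobase of transcript, scaled to the library total) does not hold this factor, so each copy is also given below as TMM-scaled CPM (counts scaled to library total and composition).

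All 3 copies were expressed in every sample, and Rht-A1 was the most abundant of them throughout. In the control grains the FPKM of Rht-A1 was 14.66, 11.58 and 14.39 in replicates 1 to 3, that of Rht-B1 was 6.80, 5.46 and 7.34, and that of Rht-D1 was 6.26, 5.36 and 5.79. Among the transcripts with an FPKM above 1 in the same sample, Rht-A1 stood between the 77.0th and the 86.5th percentile over the 9 samples, Rht-B1 between the 48.1st and the 71.7th, and Rht-D1 between the 57.4th and the 73.1st. Among these detected transcripts, the mRNA level of Rht-A1 was thus in the upper part and those of Rht-B1 and Rht-D1 nearer the middle.

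The copies rested on 294 to 470 expected counts per sample for Rht-A1, 149 to 253 for Rht-B1 and 122 to 235 for Rht-D1. Counting error alone (the square root of the count) was 4.61 to 9.06% of a value. None of the 9 expected counts of any copy was a whole number within 0.005, as happens when fragments are divided among similar transcripts, and the part of this division in the results was not tested. The annotated transcripts are 2120 bases (Rht-A1), 2323 bases (Rht-B1) and 1872 bases (Rht-D1) long, and FPKM depends on these lengths when copies are set side by side.

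In FPKM, Rht-A1 exceeded Rht-B1 in 9 of 9 samples, with a ratio within the sample of 1.96 to 2.82 and a mean log2 ratio of 1.16 ± 0.14 (SD, n = 9; exact two-sided sign-flip permutation test, p = 0.0039, the smallest that 9 samples allow). Rht-A1 also exceeded Rht-D1 in 9 of 9 samples, by a ratio of 1.29 to 2.55 and a mean log2 ratio of 0.87 ± 0.39 (SD, n = 9; same exact test, p = 0.0039). Rht-B1 and Rht-D1 had no order that held over the pooled temperatures. Rht-B1 was the higher of them in 4 of 9 samples, among them each control and no plant at 40 °C. The mean log2 ratio was -0.29 ± 0.48 (SD, n = 9; same exact test, p = 0.12). For all 3 pairs, the SD and p also hold differences between temperatures. Adjusted over these 3 pairs, the p-values were 0.0059, 0.0059 and 0.12.

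**Figure D1:**
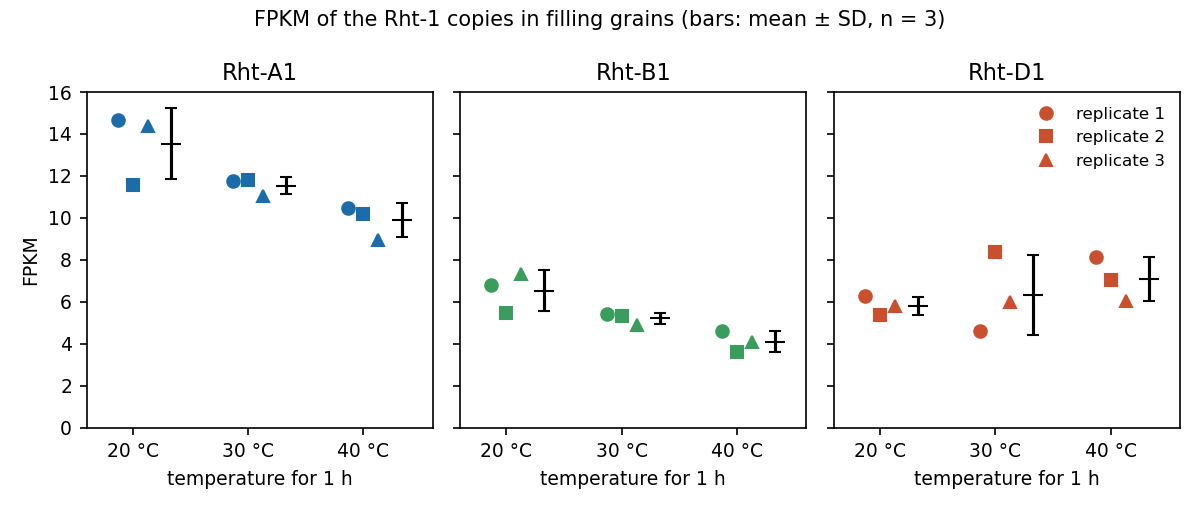
FPKM (vertical axis) of Rht-A1, Rht-B1 and Rht-D1 in filling grains after 1 h at 20, 30 or 40 °C (horizontal axis), with 1 point per plant, its shape giving the replicate number, and the mean ± SD (n = 3) in black. The means of Rht-A1 go from 13.5 to 9.89 and those of Rht-B1 from 6.53 to 4.11, while Rht-D1 goes from 5.80 to 7.08 with its widest spread at 30 °C.

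Rht-A1 had an FPKM of 11.77, 11.80 and 11.06 in the 3 plants at 30 °C and of 10.48, 10.21 and 8.97 at 40 °C. The means were 13.5 ± 1.71 at 20 °C, 11.5 ± 0.419 at 30 °C and 9.89 ± 0.805 at 40 °C (SD, n = 3). Every plant at 40 °C lay below every plant at 20 and 30 °C, whereas the control replicate 2 lay among the plants at 30 °C. As TMM-scaled CPM, Rht-A1 measured 22.3 to 29.4 at 20 °C, 20.3 to 23.0 at 30 °C and 19.9 to 21.1 at 40 °C, and on this scale the plants at 30 and 40 °C overlapped.

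Rht-B1 had an FPKM of 5.40, 5.35 and 4.90 at 30 °C and of 4.60, 3.62 and 4.10 at 40 °C. The means were 6.53 ± 0.968, 5.22 ± 0.275 and 4.11 ± 0.490 at the 3 temperatures (SD, n = 3). In FPKM the 3 groups of plants did not overlap at all, though the lowest control (5.46) and the highest plant at 30 °C (5.40) almost met. As TMM-scaled CPM the groups at 20 and 40 °C stayed apart (11.6 to 15.1 against 7.79 to 10.7), and the plants at 30 °C (9.93 to 11.7) overlapped both.

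Rht-D1 had an FPKM of 4.61, 8.36 and 6.01 at 30 °C and of 8.15, 7.06 and 6.04 at 40 °C. Its means were 5.80 ± 0.450, 6.33 ± 1.89 and 7.08 ± 1.06 (SD, n = 3), in the opposite order to those of the other copies. The plants at 30 °C enclosed the whole control range, and 40 °C replicate 3 lay within it. As TMM-scaled CPM, by contrast, every plant at 40 °C (12.0 to 14.0) lay above every control (8.97 to 10.9), while the plants at 30 °C (7.85 to 13.6) again overlapped both.

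How many copies had groups without overlap thus depended on the scale. In FPKM these were 1 of 3 between 30 and 20 °C, 2 of 3 between 40 and 20 °C and 2 of 3 between 40 and 30 °C, against 30.4%, 40.1% and 28.1% of all transcripts tested. As TMM-scaled CPM they were 0, 3 and 0 of 3, against 31.6%, 40.4% and 26.8%.

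To ask whether mild heat changed a copy, expected counts at 30 °C were compared with those at 20 °C by edgeR's quasi-likelihood test over all expressed transcripts. The log2 fold change was -0.26 for Rht-A1 (SE 0.13, FDR 0.27), -0.35 for Rht-B1 (SE 0.15, FDR 0.19) and 0.09 for Rht-D1 (SE 0.21, FDR 0.81), where the SE is derived from the edgeR statistic. None of the copies was a differentially expressed transcript (DET), which needs an FDR (Benjamini-Hochberg) under 0.05 and a fold change above 2, and none passed the FDR alone. Of all 45956 transcripts tested, 3.88% were DETs and 6.35% passed the FDR. Before adjustment, the edgeR p-value was under 0.05 for Rht-B1 alone, at 0.046, and in DESeq2 it was under 0.05 for none. Of all transcripts tested, 24.7% had an unadjusted p under 0.05 in edgeR and 21.4% in DESeq2. The sign for Rht-D1 rested on 1 plant, as its log2 fold change turned to -0.15 when 30 °C replicate 2 was left out (edgeR FDR 0.69) and was 0.04 to 0.25 when any other plant was. For Rht-A1, leaving out 20 °C replicate 1 gave -0.17 (edgeR FDR 0.54).

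At 40 against 20 °C, the comparison for severe heat, Rht-A1 and Rht-B1 had lower and Rht-D1 higher mean levels, without any of them passing the FDR. The log2 fold change was -0.32 for Rht-A1 (SE 0.13, edgeR FDR 0.13), -0.52 for Rht-B1 (SE 0.18, edgeR FDR 0.081) and 0.42 for Rht-D1 (SE 0.14, edgeR FDR 0.075). These correspond to levels at 40 °C of 0.804, 0.697 and 1.34 times the control. Again 0 of 3 copies were DETs and 0 of 3 passed the FDR, against 12.1% and 18.6% of 46250 transcripts tested. Their unadjusted p-values were 0.043, 0.020 and 0.017 (edgeR), all under 0.05, and DESeq2 gave 2 of 3 under 0.05 with none past its FDR. An unadjusted p under 0.05 was common in this comparison, at 33.8% of all transcripts tested in edgeR and 30.3% in DESeq2.

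For Rht-B1 the call at 40 °C turned with the setting. Its FDR was 0.033 with library size in place of TMM, where the log2 fold change was -0.67, 0.038 in 1 edgeR fit over all 9 samples and 0.049 when counts were summed by gene. Each copy has 1 transcript, so the sum by gene left its own counts unchanged and altered the set of features tested. Over all alternatives run for Rht-B1 at 40 against 20 °C, the FDR ranged from 0.033 to 0.20. Without 40 °C replicate 3, the library that stood apart, the log2 fold changes were -0.34, -0.62 and 0.44 for Rht-A1, Rht-B1 and Rht-D1, with an edgeR FDR of 0.16, 0.072 and 0.10.

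**Figure D2:**
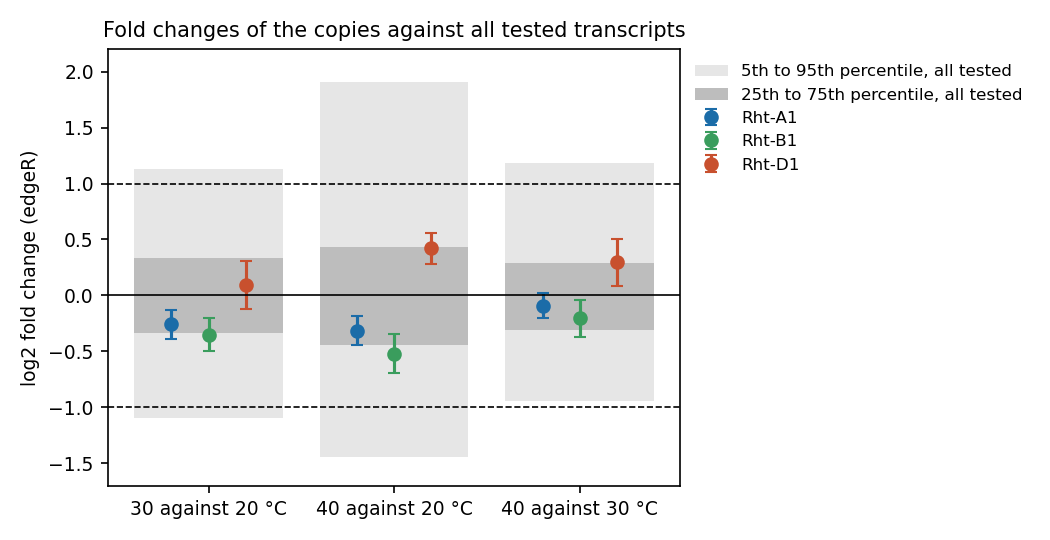
Log2 fold change (vertical axis, edgeR) of Rht-A1, Rht-B1 and Rht-D1 in the 3 comparisons of temperatures, with bars of 1 SE derived from the test, over grey boxes for the 5th to 95th and the 25th to 75th percentile of all tested transcripts; dashed lines mark a fold change of 2. All 9 values lie inside the dashed lines, from -0.52 (Rht-B1, 40 against 20 °C) to 0.42 (Rht-D1, same comparison).

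Set among all transcripts tested between 40 and 20 °C, whose median log2 fold change was 0.0036, Rht-A1 stood at the 30.9th percentile, Rht-B1 at the 21.8th and Rht-D1 at the 74.6th. Between 30 and 20 °C, where the median over all was -0.0037, the percentiles were 30.1, 24.4 and 58.0. The members therefore lay in the body of the distribution, between the 5th and 95th percentile, in both comparisons with the control.

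The plants at 40 °C were also compared directly with those at 30 °C. The log2 fold change was -0.09 for Rht-A1 (SE 0.11, edgeR FDR 0.70), -0.20 for Rht-B1 (SE 0.17, edgeR FDR 0.55) and 0.30 for Rht-D1 (SE 0.21, edgeR FDR 0.48). No copy was a DET or passed the FDR, against 3.56% and 5.14% of 44638 transcripts tested, and no copy had an unadjusted p under 0.05 in edgeR or DESeq2, against 20% and 17.3% of all transcripts. With library size in place of TMM these values were -0.23, -0.35 and 0.16 (edgeR FDR 0.36, 0.27 and 0.73). For Rht-D1, leaving out 30 °C replicate 2 gave 0.54 and leaving out replicate 1 of that temperature gave 0.15 (edgeR FDR 0.22 and 0.70). For Rht-B1 the value was -0.074 once 40 °C replicate 2 was left out and -0.13 once 30 °C replicate 1 was (edgeR FDR 0.85 and 0.73). For Rht-A1 it was -0.032 when 30 °C replicate 1 was dropped and -0.14 when 30 °C replicate 3 was (edgeR FDR 0.91 and 0.67).

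A single test of any difference among the 3 temperatures, over all 9 samples, gave an edgeR FDR of 0.13 for Rht-A1, 0.086 for Rht-B1 and 0.31 for Rht-D1, and 16.7% of 47535 transcripts passed it. With library size in place of TMM the FDR of Rht-B1 was 0.036. The coefficient of variation between replicates in FPKM bears on these values. It was 12.6%, 3.63% and 8.14% for Rht-A1 at 20, 30 and 40 °C, 14.8%, 5.28% and 11.9% for Rht-B1, and 7.76%, 30.0% and 14.9% for Rht-D1, whose plants at 30 °C were the most unlike of all.

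**Figure D3:**
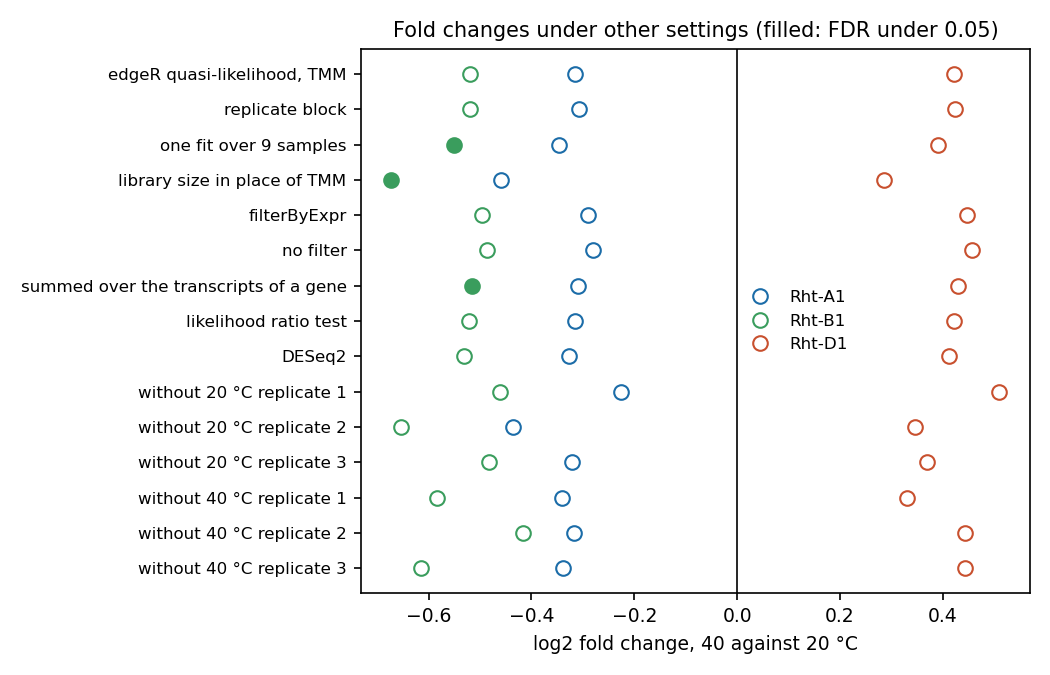
Log2 fold change at 40 against 20 °C (horizontal axis) of Rht-A1, Rht-B1 and Rht-D1 under each setting (vertical axis), with filled points where the FDR was under 0.05. Rht-A1 spans -0.46 to -0.23, Rht-B1 -0.67 to -0.42 and Rht-D1 0.28 to 0.51, and filled points occur for Rht-B1 in 3 settings.

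Summed over the copies, the triad had an FPKM of 27.72, 22.40 and 27.52 in the control plants, 21.78, 25.51 and 21.97 at 30 °C and 23.23, 20.89 and 19.11 at 40 °C. The means were 25.9 ± 3.02, 23.1 ± 2.10 and 21.1 ± 2.07 (SD, n = 3), and the groups overlapped in every comparison. The log2 difference was -0.16 between 30 and 20 °C, -0.29 between 40 and 20 °C and -0.13 between 40 and 30 °C (exact two-sided permutation tests, p = 0.2, 0.2 and 0.4, where 0.1 is the smallest that 3 against 3 plants allow). Adjusted over the 3 comparisons, these p-values were 0.3, 0.3 and 0.4. In TMM-scaled CPM the differences were -0.20, -0.21 and -0.0063. This unit is not divided by transcript length, so its sum also weights the copies otherwise than FPKM does. Single plants also moved the FPKM sums. Leaving out 20 °C replicate 2 gave -0.26 between 30 and 20 °C. Between 40 and 30 °C the difference was -0.058 when 30 °C replicate 2 was dropped, -0.064 when 40 °C replicate 3 was and -0.20 when 40 °C replicate 1 was.

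Since library size and composition scaling cancel within a sample, the balance of the copies was taken as each copy's share of the summed FPKM. Rht-D1 held 22.6, 23.9 and 21.0% in the controls, 21.2, 32.8 and 27.4% at 30 °C and 35.1, 33.8 and 31.6% at 40 °C. Its share was above 31% in each plant at 40 °C and below 24% in each control. At 30 °C, replicate 1 resembled the controls and replicate 2 the plants at 40 °C. How often a share separates the plants at 40 and 20 °C in other triads was not computed. Of single transcripts, 40.1% separated them in FPKM. The mean share of Rht-D1 was 22.5 ± 1.45%, 27.1 ± 5.81% and 33.5 ± 1.76% (SD, n = 3), a difference of 10.98 percentage points between 40 and 20 °C.

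Rht-B1 held 25.2 ± 1.28%, 22.7 ± 1.94% and 19.5 ± 2.08% of the summed FPKM at 20, 30 and 40 °C (SD, n = 3), a difference of -5.66 percentage points between 40 and 20 °C. For Rht-A1 the shares were 52.3 ± 0.595%, 50.2 ± 3.89% and 47.0 ± 1.88% (SD, n = 3), a difference of -5.31 percentage points. Tested over all possible assignments of the samples to the 3 temperatures, so for any difference among them, the exact permutation p was 0.039 for the share of Rht-D1, 0.021 for that of Rht-B1 and 0.13 for that of Rht-A1. Adjusted over the 3 shares, which add up to the whole and are not independent, the p-values were 0.059, 0.059 and 0.13, so that no difference in balance passed 0.05. With 1 sample left out in turn, the exact permutation p for Rht-D1 ranged from 0.011 (without 30 °C replicate 1) to 0.10 (without 40 °C replicate 1), and it was under 0.05 only without 30 °C replicate 1 or 2. For Rht-B1 it was not under 0.05 without 40 °C replicate 2 or any control (exact permutation p from 0.050 to 0.096), and for Rht-A1 it was under 0.05 only without 30 °C replicate 2 (0.043).

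**Figure D4:**
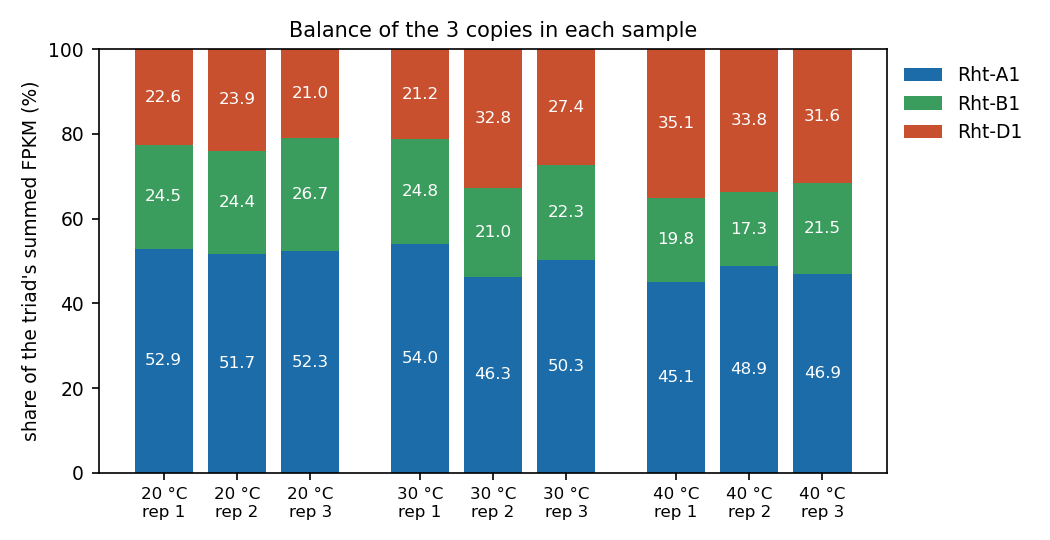
Share of the triad's summed FPKM in percent (vertical axis) held by Rht-A1, Rht-B1 and Rht-D1 in each of the 9 samples (horizontal axis, rep for replicate). Rht-D1 holds 21.0 to 23.9% in the controls, 21.2 to 32.8% at 30 °C and 31.6 to 35.1% at 40 °C.

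The same balance appears as ratios between copies in single plants. Rht-D1 measured 0.402 to 0.463 times Rht-A1 in the controls, 0.392, 0.708 and 0.543 times in replicates 1 to 3 at 30 °C and 0.673 to 0.778 times at 40 °C. Against Rht-B1, its ratio was 0.789 to 0.982 in the controls, 0.854, 1.56 and 1.23 at 30 °C and 1.47 to 1.95 at 40 °C. Rht-D1 was thus below Rht-B1 in all 3 controls and above it in all 3 plants at 40 °C. How common such a change of order is among other copies was not computed. The ratio of Rht-A1 to Rht-B1 was 1.96 to 2.16, 2.18 to 2.26 and 2.19 to 2.82 at the 3 temperatures. Whether these ratios differ between temperatures was not tested apart from the shares.

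Among the plants at 30 °C, the counting intervals of replicates 1 and 2 for Rht-D1 did not overlap. Of the triad's rounded expected counts, Rht-D1 took 122 of 661 in 30 °C replicate 1 (18.5%, 95% Wilson interval 15.7 to 21.6%) and 235 of 807 in replicate 2 (29.1%, 95% Wilson interval 26.1 to 32.4%). Replicate 3 lay between them with 183 of 758 (24.1%, 95% Wilson interval 21.2 to 27.3%). At 40 °C the share of the counts was 28.0 to 31.4% and in the controls 18.3 to 20.9%. The intervals cover counting error only and leave out the error in dividing fragments among the copies. Pooled over transcripts with enough counts, replicates had a chi-square per degree of freedom of 7.33 to 22.3. This is an average, so it does not show how many transcripts differed beyond counting error. It was not computed for shares within triads.

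Over the 9 samples the pattern of Rht-A1 was close to that of Rht-B1, with a Pearson correlation of 0.93 (Spearman 0.90) of log2(FPKM + 1). Ranked among 47534 other transcripts with a mean FPKM above 1 at any temperature, Rht-B1 was the 114th most like Rht-A1, and Rht-A1 the 299th most like Rht-B1. Rht-D1 followed neither, with a correlation of -0.20 with Rht-A1 and -0.30 with Rht-B1 (Spearman -0.15 and -0.47). These correlations describe 9 samples that fall into 3 temperatures and share their libraries, and no test was attached to them.

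The transcript most like Rht-A1 was TraesCS5D02G377000.1, with a correlation of 0.99 and a mean FPKM of 3.56, 2.08 and 1.29 at 20, 30 and 40 °C. For Rht-B1 it was TraesCS7B02G237200.1 (0.98), with 9.16, 6.93 and 4.39. For Rht-D1 it was TraesCS7D02G223200.3 (0.95), with 0.463, 1.02 and 1.20. They were picked as the highest of many correlations, and the files give no names for them.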

How the data were processed

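Filling grains of 9 samples were compared, 3 plants at each of 20, 30 and 40 °C, grouped by the sample labels. The authors trimmed the paired-end reads with Trimmomatic (version 0.36), took IWGSC v1.0 as the reference, and ran RSEM (version 1.3.0) for transcript levels. The deposited tables hold an expected count per transcript, which is not normalized, and TPM and FPKM, which the authors' RSEM corrected for length and library total. The deposited percent of each gene's isoforms was not used. The submitters' notes name edgeR (version 3.24.3).

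Expected counts were rounded. For each pair of temperatures, the 6 samples and every transcript whose mean FPKM exceeded 1 in at least 1 group entered the quasi-likelihood test of edgeR (version 4.0.16 under R 4.3.3, with limma 3.58.1) after TMM scaling, and the Benjamini-Hochberg FDR was taken over them. The SE is the absolute log2 fold change divided by the square root of F. FPKM sums and shares were compared between temperatures, and levels between copies within samples, by exact permutation in Python 3.11.15 (numpy 2.4.6, pandas 2.3.3, scipy 1.17.1). Alternatives were the replicate block, 1 fit over 9 samples, DESeq2 1.42.0, library size, other filters, sums by gene, a likelihood ratio test, other units and pseudocounts, and leaving out each replicate. The members, lists and tests were chosen with earlier results of these data known.

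The named transcripts were to be all members and, for each, the 2 most correlated transcripts, of which the first is given. Planned lists of gibberellin and GRAS genes and of tissue markers needed gene descriptions. The RefSeq gene table at hand matched 0 identifiers, so these lists, sequences and coordinates are not used here.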

Additional observations from a re-analysis of the deposited data

How the results depend on the processing

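None of the 9 log2 fold changes passed the FDR, and each was recomputed under 14 alternatives. With a replicate left out fewer plants remain, so staying above an FDR of 0.05 says little there. Of the 126 values, 122 kept their sign and their side of an FDR of 0.05. The exceptions were Rht-D1 at 30 against 20 °C, which ran from -0.15 to 0.25 with 1 replicate left out, and Rht-B1 at 40 against 20 °C, which passed the FDR at -0.55 (1 fit over 9 samples), -0.67 (library size) and -0.51 (sums by gene). The test over 3 temperatures gave Rht-B1 an FDR of 0.036 with library size. The cause was not tested. With 1 sample left out, the difference in share between 40 and 20 °C ran from -6.26 to -4.38 percentage points for Rht-A1, -6.63 to -4.56 for Rht-B1 and 10.2 to 11.9 for Rht-D1. The exact permutation p, which tests each share over all 3 temperatures and not that difference, ran from 0.043 to 0.26, 0.011 to 0.096 and 0.011 to 0.10. Leaving out 1 sample alone lowers the number of possible assignments. The sums kept their direction in every alternative run, though between 40 and 30 °C the difference was only -0.0063 in TMM-scaled CPM. For the levels between copies, a pseudocount keeps the order within a sample, and the expected count per effective length restates the FPKM ratio. Those alternatives could thus hardly change a direction.

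The labels and the study do not say whether samples with the same replicate number share anything beyond it, such as a batch. The correlation of their deviations was 0.13, 0.051 and 0.021 between 20 and 30 °C, between 20 and 40 °C -0.043, 0.069 and -0.070, and between 30 and 40 °C -0.014, 0.063 and -0.12. With the replicate block, 0 of the 9 values passed the FDR (0.065 to 0.88), and at 40 against 20 °C they were -0.31, -0.52 and 0.42. The DETs over all transcripts then numbered 1946, 4406 and 1061 in the 3 comparisons, against 1784, 5583 and 1587. Of 6 samples in each comparison, 4, 1 and 1 correlated best with their own number. The candidates for each sample were the 3 plants of the other temperature, and 1 of them bore its number. Each value rests on 3 plants a group and on 122 to 470 counts a sample.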
